A study of Mus musculus with 24 samples.

Results

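The growth hormone axis of the liver was followed through 8 genes, taken by symbol from the 56205 genes of a count table of mouse whole-liver RNA-Seq. They were the receptor gene Ghr, the transcription factor genes Stat5a and Stat5b, the secreted products Igf1 and Igfals, and the feedback inhibitors Socs2, Socs3 and Cish. All 8 were among the 17913 genes that passed the filter on low counts, which was at least 1 count in at least 12 libraries. The libraries came from C57BL/6J mice, males and females, that were 8 to 10 weeks old at the start and then ate either the high-fat diet or the control diet for 20 weeks. By the study's methods the high-fat diet was rich in palm oil, fructose and cholesterol. Each diet had 12 libraries, numbered from replicate 1 to replicate 12, and no mouse carried an altered gene. Reads came from whole liver, so less RNA per cell and fewer cells of a type cannot be told apart in any of the values. Nothing in the labels says whether a library is 1 mouse or a pool, so p-values measure the spread between these libraries.

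Growth hormone from the pituitary binds its receptor on hepatocytes and activates the kinase JAK2, which phosphorylates STAT5a and STAT5b. These enter the nucleus and switch on genes such as Igf1, whose product is the main circulating growth factor made by the liver, and the genes for SOCS2 and CISH, which damp the receptor in turn. In rodents the hormone is released in pulses in males and more evenly in females, and this pattern sets the sex-biased expression of many liver genes.

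Libraries held between 14468418 and 22112552 counts. The libraries fell into 2 sets by Xist, the RNA of the inactive X chromosome: replicates 1 to 6 of both diets held 2664 to 6285 Xist counts and 0 of the Y-linked gene Ddx3y, and replicates 7 to 12 held 0 to 3 and 448 to 1016. They are called Xist-high and Xist-low here, with 6 libraries per diet each, because the labels give no sex for a library. Replicate 10 of the control diet stood apart, with the fewest counts of the 24 and the lowest TMM scaling factor, 0.679, against up to 1.34 on the high-fat diet. TMM is edgeR's scaling, which sets libraries level on the bulk of their genes. Levels are TMM-scaled CPM, a library's counts relative to its scaled total. A gene was called where its adjusted p did not exceed 0.01 and its log2 fold change was beyond 0.5 either way, as the study's methods set it.

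On the high-fat diet 3 of the 8 genes were called lower, namely Ghr, Igf1 and Igfals, and 0 were called higher by edgeR, DESeq2 or limma-voom (1 was higher at an unadjusted p under 0.05, Socs3). Over all genes 4.99% were called lower and 13.2% higher. Ghr, the hormone's receptor, spanned 353 to 527 CPM in controls, median 480. High-fat libraries spanned 148 to 381, median 284, so that 10 of 12 high-fat libraries lay below every control. For such overlaps no share over all genes is given, here or below. Its log2 fold change was -0.66 (SE 0.12, adjusted p = 8.22e-05, edgeR's quasi-likelihood test), or 0.632 of the control level.

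Igf1, the growth factor, spanned 458 to 677 CPM in controls, median 587. High-fat libraries spanned 241 to 480, median 347, and 11 of 12 high-fat libraries lay below every control. The log2 fold change was -0.70 (SE 0.12, adjusted p = 8.46e-05 by edgeR). Igfals encodes the acid-labile subunit, which holds IGF-1 in a long-lived complex in blood. It spanned 126 to 256 CPM in controls, median 195, and 45.4 to 187 in high-fat libraries, median 102. Here the diets overlapped more, with 7 of 12 high-fat libraries below every control. Its log2 fold change was -0.77 (SE 0.21, adjusted p = 0.00457 by edgeR).

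**Figure D1:**
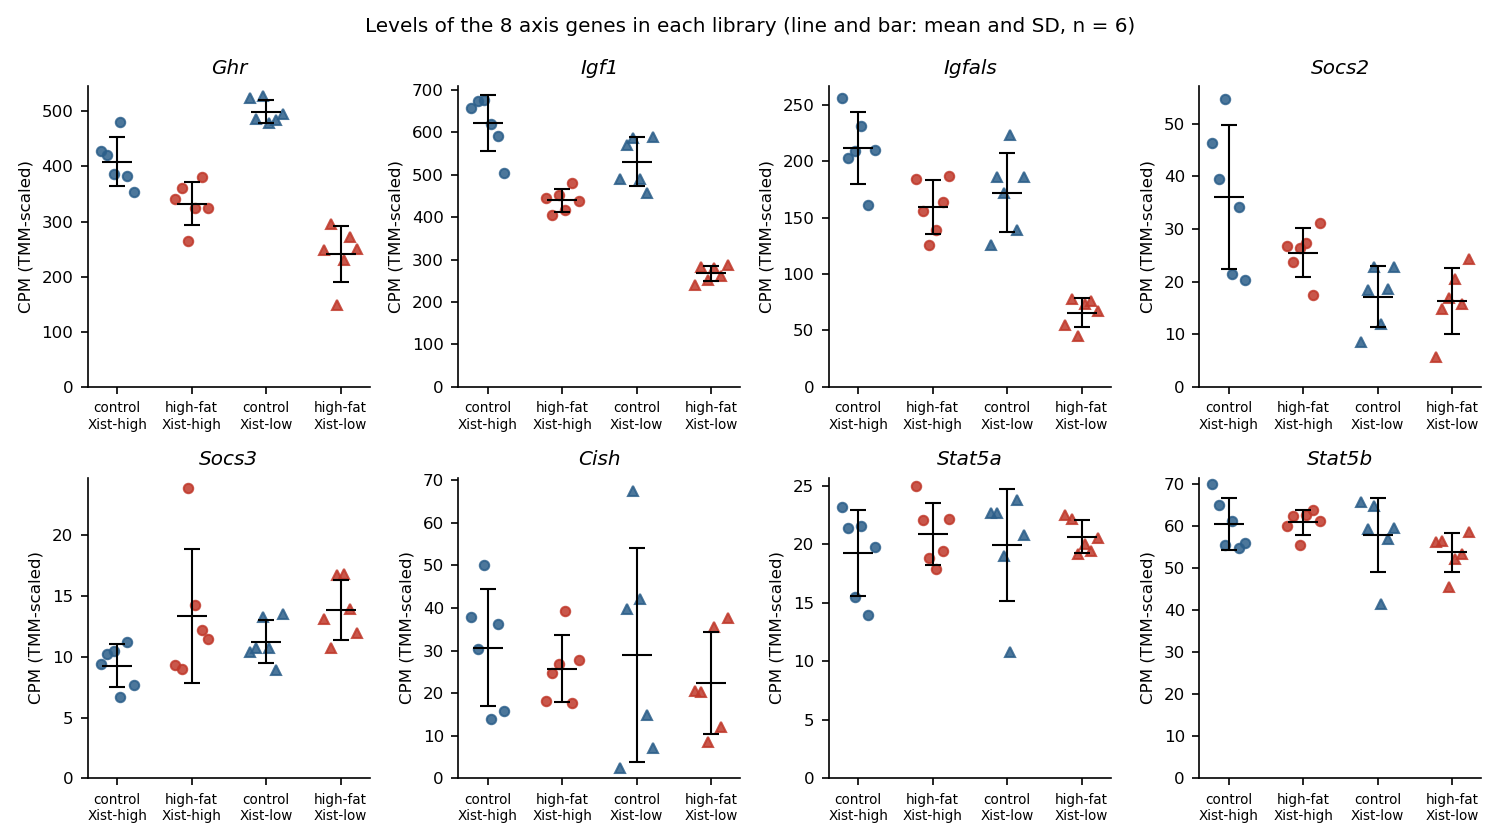
Level of each of the 8 genes in every library, in TMM-scaled CPM on axes that start at 0, by diet and set. Each point is 1 library, the line and bar are the mean and SD of 6 libraries; circles are Xist-high and triangles Xist-low libraries. Ghr, Igf1 and Igfals sit lowest in the 6 high-fat Xist-low libraries, and Cish scatters from 2.54 to 67.4 CPM among the controls.

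Without replicate 10 of the control diet, these 3 log2 fold changes were -0.66, -0.72 and -0.75, and all 3 calls stood. The calls did turn on the scaling. With library totals in place of TMM, the median of all genes moved from -0.03 to 0.26 and 1.26% of genes were called lower in place of 4.99%. The 3 genes then had log2 fold changes of -0.39, -0.45 and -0.53, and none was called. Relative to the moved median they stood at -0.65, -0.70 and -0.79.

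The feedback inhibitors did not pass the thresholds. Socs2, which marks STAT5 activity and restrains growth hormone signalling, spanned 8.43 to 54.7 CPM in controls and 5.7 to 31.2 in high-fat libraries, with a median of 22.1 in each. The medians were level, while 4 controls lay above every high-fat library. Its log2 fold change was -0.35 (SE 0.26, adjusted p = 0.286 by edgeR). Cish, the first member found of the SOCS family, spanned 2.54 to 67.4 CPM in controls, median 33.3, and 8.62 to 39.3 in high-fat libraries, median 22.7. Its highest control was 26.5 times its lowest, and the high-fat range lay within the control range. The log2 fold change was -0.31 (SE 0.35, adjusted p = 0.511 by edgeR), which leaves changes in either direction within its error.

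Socs3, which answers mainly to STAT3 and inflammatory cytokines, lay in the other direction. It spanned 6.67 to 13.5 CPM in controls, median 10.5, and 8.97 to 23.9 in high-fat libraries, median 12.6. In all, 5 high-fat libraries lay above every control and 3 controls below every high-fat library. The log2 fold change was 0.41 (SE 0.14, adjusted p = 0.0207 by edgeR), short of both thresholds. With library totals it was 0.71 (adjusted p = 0.000331 by edgeR) and called higher, where 21.4% of all genes were.

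Neither of the signal carriers passed the thresholds. Stat5b spanned 41.4 to 70.1 CPM in controls, median 59.4, and 45.5 to 63.9 in high-fat libraries, median 57.5. Its log2 fold change was -0.05 (SE 0.07, adjusted p = 0.634 by edgeR). Stat5a spanned 10.8 to 23.8 CPM in controls, median 21.1, and 17.9 to 25 in high-fat libraries, median 20.3. Its log2 fold change was 0.08 (SE 0.10, adjusted p = 0.556 by edgeR), and the lowest control value was that of replicate 10. Of its 51-base exon windows 8.36% also occur in other transcripts, mostly of Stat5b, and 10.8% of those of Stat5b occur in Stat5a, so counts of the pair could be split between them.

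**Figure D2:**
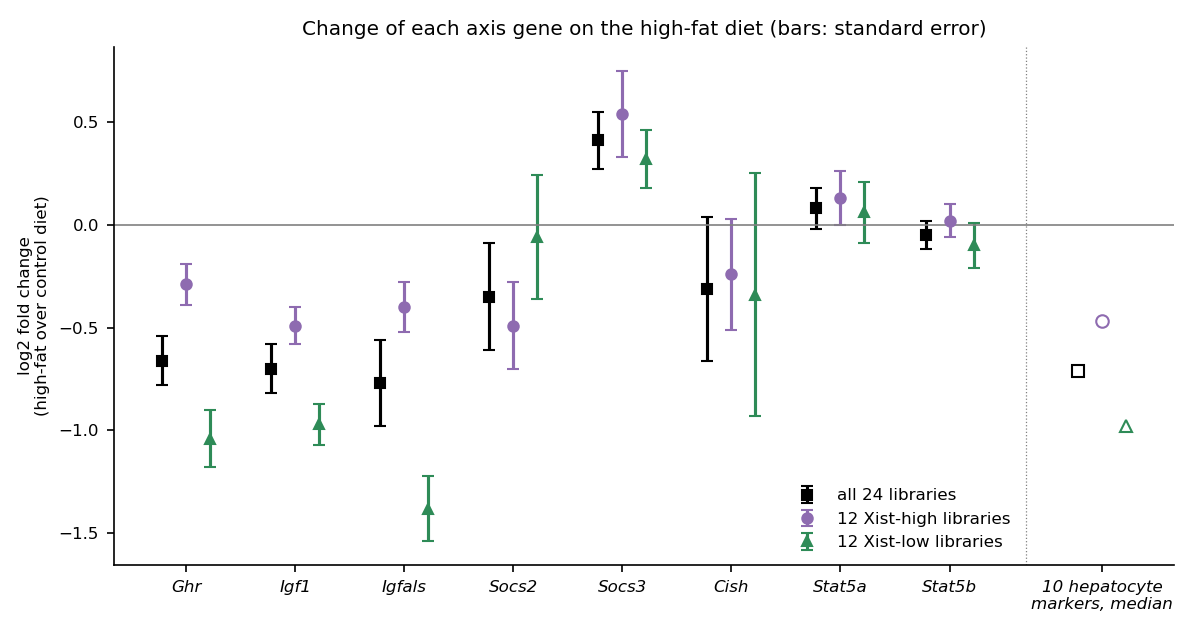
Log2 fold change of each of the 8 genes (high-fat over control diet) in all 24 libraries, in the 12 Xist-high and in the 12 Xist-low libraries, with standard errors from edgeR. Open symbols at the right give the median log2 fold change of 10 hepatocyte markers, -0.71, -0.47 and -0.98. Ghr, Igf1 and Igfals lie below 0 in each fit, farther in the Xist-low libraries, beside marker medians of like size.

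Expressed per kilobase of exon, the control levels fell into tiers. Igfals (60.6 ± 12 CPM per kb, SD, n = 12), Igf1 (58.1 ± 7.62) and Ghr (50.1 ± 6.44) were not apart beyond their spread. Stat5b followed at 10.7 ± 1.33, and Cish (4.65 ± 3.01), Socs3 (3.55 ± 0.688), Socs2 (2.79 ± 1.48) and Stat5a (2.75 ± 0.574) overlapped at the bottom. On the high-fat diet the top tier came down to 35.5 ± 16.5 for Igfals, 35.7 ± 9.36 for Igf1 and 31.7 ± 7.14 for Ghr, with Stat5b at 10.3 ± 0.955. Lengths are those of all annotated exons of a gene in GENCODE M21, which may not be the annotation used for counting.

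In GENCODE M21 (GRCm38), Igf1 and Socs2 lie on chromosome 10, at chr10:87858265-87937042 on the plus strand and chr10:95385362-95417180 on the minus strand. Stat5b (chr11:100780731-100850724, minus strand) and Stat5a (chr11:100859351-100885169, plus strand) are neighbours on chromosome 11, which also carries Socs3 (chr11:117966079-117970047, minus strand). Ghr is at chr15:3317760-3583492 (minus strand), Igfals at chr17:24865997-24882010 (plus strand) and Cish at chr9:107296026-107302784 (plus strand). Cish shares 740 bp of exon with antisense genes on the opposite strand, and whether counting of the mouse reads used strand is not given in the sources used here.

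STAT5 is known to bind the palindrome TTCNNNGAA. Both strands were searched in RefSeq promoter windows (GRCm38.p6), from 250 bases before to 50 after each annotated start. The letters were found in 8.3% of 32851 windows of the genome and in 4 of the 12 windows of the 7 genes that have an entry. No overlap with another motif was examined, and a match is a description of letters and not a shown binding site. The stretches that hold it are shown because they belong to Cish, a feedback gene, to Igfals, which was called lower, and to Socs3; capitals mark the motif.
Cish, chr9:107296655-107296684, plus strand, motifs beginning at bases 1 and 12 after the start: agttTTCCTGGAAagTTCTTGGAAatctgt
Igfals, chr17:24877594-24877653, plus strand, motif beginning at -236: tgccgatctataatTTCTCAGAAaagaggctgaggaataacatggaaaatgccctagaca
Igfals, second start, chr17:24878158-24878197, plus strand, motif beginning at -58: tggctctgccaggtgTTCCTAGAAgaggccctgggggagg
Socs3, chr11:117969447-117969616, minus strand, motif beginning at -154: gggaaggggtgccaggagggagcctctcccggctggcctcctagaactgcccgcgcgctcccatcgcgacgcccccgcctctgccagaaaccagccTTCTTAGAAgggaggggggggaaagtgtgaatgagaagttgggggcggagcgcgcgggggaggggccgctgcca
The Cish window holds 2 motifs, and 0.457% of all windows hold 2 or more. No match was found in the windows of Ghr, Igf1, Stat5a or Stat5b, which says nothing of sites elsewhere.

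Within the sets, the 3 genes had log2 fold changes below 0 in both, with calls in the Xist-low set. Among Xist-low libraries Ghr averaged 500 ± 21 CPM on the control diet and 241 ± 51.1 on the high-fat diet (SD, n = 6), Igf1 531 ± 57.2 and 267 ± 18.9, and Igfals 172 ± 35.1 and 65.5 ± 12.9. The diets did not overlap for any of the 3, and the share of all genes without overlap is not given. Their log2 fold changes were -1.04 (adjusted p = 6.87e-05), -0.97 (9.55e-06) and -1.38 (2.01e-05) by edgeR, all called, where 7.99% of all genes were called lower.

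Among Xist-high libraries Ghr averaged 408 ± 45.1 and 332 ± 39.5 CPM, Igf1 621 ± 66 and 440 ± 26.4, and Igfals 212 ± 31.5 and 159 ± 24. Igf1 alone of the 3 had no overlap here. The log2 fold changes were -0.29 (adjusted p = 0.0807), -0.49 (0.00408) and -0.40 (0.0394) by edgeR, none called (4 of the 8 genes were lower and 1 higher at an unadjusted p under 0.05), where 0.882% of all genes were called lower. In exact two-sided permutation tests of log2(CPM + 1), with 0.00216 the smallest p that 6 against 6 allow, the Xist-high p-values were 0.0108, 0.00216 and 0.0152.

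The difference between the sets was tested as an interaction of diet and set, Xist-low minus Xist-high. It was -0.98 for Igfals (SE 0.21, adjusted p = 0.00354 by edgeR) and -0.76 for Ghr (SE 0.18, adjusted p = 0.00676), both called, where 1.47% of all genes had a called negative interaction. Igf1 had -0.49 (SE 0.13, adjusted p = 0.0173), which missed the thresholds. The call of Ghr was lost in 14 of 24 fits with 1 library left out, namely control replicates 3, 5, 6, 7, 8, 9 or 12 or high-fat replicates 1, 2, 4, 5, 7, 10 or 12. Its adjusted p ran from 0.00316 to 0.0156 over the 24 fits. The other 5 genes had adjusted p-values of at least 0.554 for the interaction. With library totals the interactions of Igfals and Ghr were -0.62 and -0.42 (adjusted p = 0.0283 and 0.0832 by edgeR), and neither was called. The median interaction of all genes then stood at 0.32, so relative to it they were -0.94 and -0.75.

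Hepatocyte markers moved by a like amount. Of 10 markers, among them albumin (Alb), transthyretin (Ttr) and the urea cycle enzyme Cps1, 8 were called lower and 0 higher. Over all genes 4.99% were called lower, and the median log2 fold change of the markers was -0.71. Alb had -0.72, Ttr -0.62 and Cps1 -0.99. Their summed level ran from 91590 to 142621 CPM in controls and from 41985 to 99286 on the high-fat diet. The median was -0.47 in the Xist-high and -0.98 in the Xist-low libraries. Markers of other cells moved upward: 9 of 10 macrophage and monocyte markers, 7 of 9 stellate cell and fibroblast markers and 4 of 5 cholangiocyte markers were called higher. Over all genes 13.2% were called higher. The summed macrophage markers ran from 144 to 584 CPM in controls and from 598 to 1192 on the high-fat diet. Of neutrophil markers 2 of 3 tested were called higher, and of endothelial markers 1 of 6, near the 13.2% of all genes. Of T and NK cell (7), B cell (4) and erythroid markers (4) 0 were called with all libraries. Within the Xist-high libraries 2 of 10 hepatocyte markers were called lower. There 3 of 10 macrophage, 5 of 9 stellate cell and 0 of 5 cholangiocyte markers were called higher. Over all genes 0.882% were called lower and 2.9% higher in that set. The same counts in the Xist-low libraries were 8, 9, 7 and 4. Within the Xist-low libraries, where Ghr, Igf1 and Igfals were called, 14.4% of all genes were called higher and 7.99% lower. Of the 7 T and NK cell markers 3 were called higher there (Cd3g, Cd8a and Nkg7). Of the 4 B cell markers 1 was (Cd79a), and of the 6 endothelial markers 2 were (Pecam1 and Cdh5). In the same lists Cd4 (log2 fold change -1.05), Kdr (-0.20) and Clec4g (-0.57) lay below 0 there and were not called. Alas2, of the erythroid list, was called lower in the Xist-low (log2 fold change -1.17) and higher in the Xist-high libraries (1.75). Its control means were 139 CPM in the Xist-low and 10.9 in the Xist-high libraries. The globin genes of that list differed less between these controls (Hbb-bs 209 and 198, Hbb-bt 48.2 and 41.1, Hba-a1 133 and 122 CPM) and were called in neither set. All 5 exocrine pancreas markers were too low to test, with sums of at most 0.193 CPM. The part of these cells in the values of the axis genes was not tested.

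The mean log2 level of the 10 hepatocyte markers was then subtracted from each gene in each library, a scale chosen after the data were seen. Markers and the 3 genes were already known to move by a like amount, so differences near 0 were set in advance. The values describe that likeness and cannot tell fewer hepatocytes from less RNA per hepatocyte. Of the markers Serpina1c itself had a called interaction of diet and set (-1.15, adjusted p = 0.001 by edgeR). Ghr then differed by 0.09 between the diets (p = 0.452), Igf1 by 0.04 (p = 0.573) and Igfals by -0.11 (p = 0.516, two-sided permutation tests with 100000 resamples). Before subtraction they had differed by -0.69, -0.74 and -0.89, with p = 1e-05, the smallest these resamples can give, for the first 2 and p = 0.00055 for Igfals. In the Xist-low libraries Igfals stood at -0.34 on the relative scale (p = 0.0758, exact permutation test).

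Every gene is moved up by the same 0.78 on this scale, since the marker mean was 11.87 in controls and 11.09 on the high-fat diet. A gene with no difference per library therefore stands about that much above 0. The other members stood at 0.52 (Socs2), 0.74 (Stat5b), 0.75 (Cish), 0.89 (Stat5a) and 1.13 (Socs3). Their permutation p-values, in the same order, were 0.0566, 1e-05, 0.0701, 8e-05 and 1e-05. These values and p-values include the change of the markers and are by themselves no sign of a rise. Socs3 had differed by 0.35 before subtraction (p = 0.0113, two-sided permutation test with 100000 resamples).

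**Figure D3:**
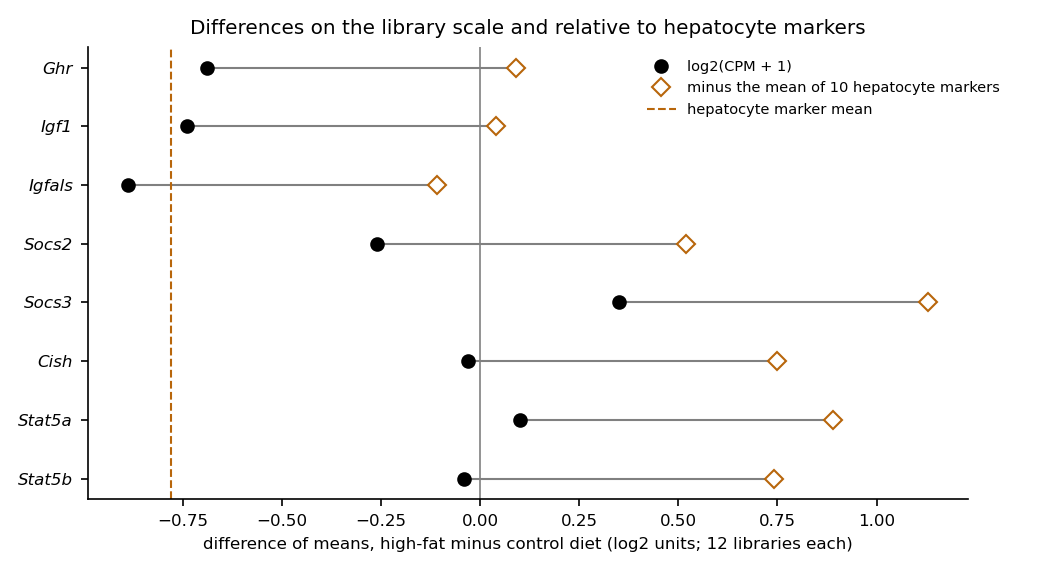
Difference of the mean log2(CPM + 1) between diets (12 libraries each, high-fat minus control) for each gene, as measured (filled circles) and after subtracting the mean of 10 hepatocyte markers (open diamonds). The dashed line is the marker mean itself. Ghr, Igf1 and Igfals lie close to the dashed line before and close to 0 after subtraction.

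Across libraries of 1 diet and after subtracting set means, 4 pairs of members were compared in each diet, 16 correlations in all with both coefficients. Socs2 and Igf1 on the control diet had Pearson's r = 0.71 (permutation p = 0.0158, adjusted p = 0.126) and Spearman's rho = 0.81 (permutation p = 0.00306, adjusted p = 0.049; n = 12). Without the 2 libraries farthest from the Socs2 median Pearson's r fell to 0.58 (permutation p = 0.0636), so it depends on those libraries; without control replicate 6 it was 0.62 (permutation p = 0.0639). Within the Xist-high controls r was 0.79 and within the Xist-low controls 0.63 (n = 6 each; exact permutation p = 0.0486 and 0.215). When the within-set values joined the family, 48 in all, the adjusted p of rho was 0.147. On the high-fat diet the same pair had r = 0.43 (permutation p = 0.226; rho = 0.25, p = 0.467), and the difference between diets was not tested.

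Cish and Socs2, the feedback pair, had r = 0.57 in controls (permutation p = 0.0548; rho = 0.38, p = 0.242) and r = 0.30 on the high-fat diet (p = 0.51; rho = 0.52, p = 0.127; n = 12 each). Among the 6 Xist-high controls r was 0.96 (exact permutation p = 0.00833, adjusted p = 0.267 over 32 within-set values), and among the 6 Xist-low controls 0.47 (p = 0.361). Ghr with Igf1 gave r = 0.43 in controls and 0.29 on the high-fat diet (permutation p = 0.194 and 0.45), with rho of 0.38 and 0.23 (p = 0.211 and 0.498). Igf1 with Igfals gave r = 0.34 and 0.49 (permutation p = 0.296 and 0.135), with rho of 0.27 and 0.43 (p = 0.437 and 0.199). Neither pair passed the adjustment.

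**Figure D4:**
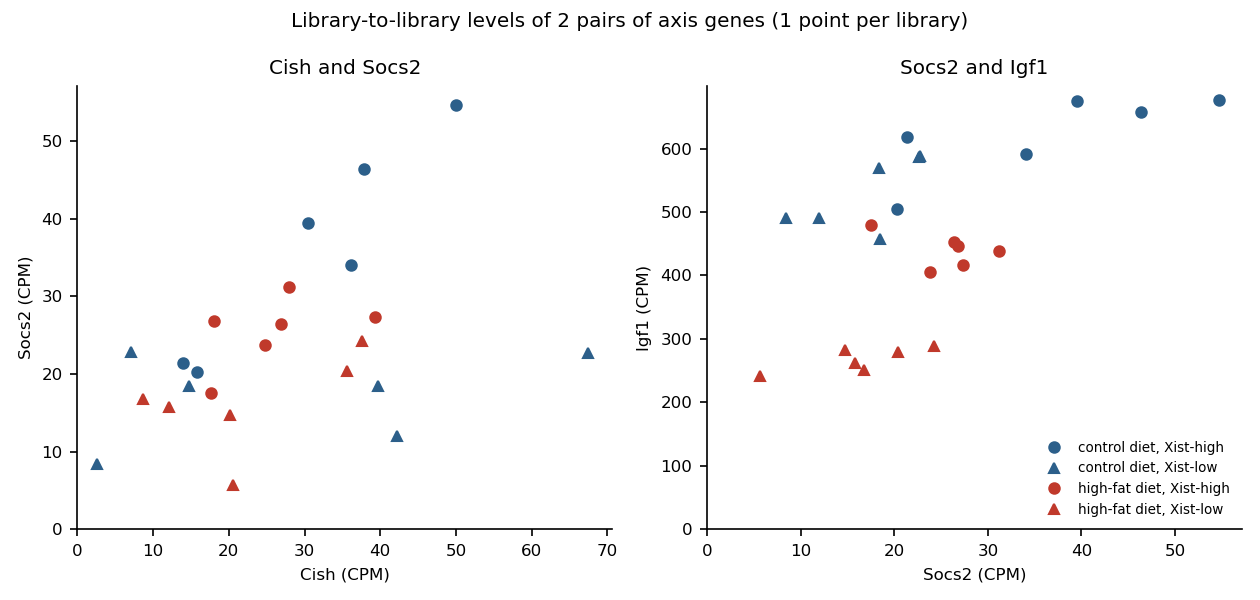
Levels in CPM of Cish against Socs2 and of Socs2 against Igf1, 1 point per library, coloured by diet, with circles for Xist-high and triangles for Xist-low libraries. The plotted levels still hold the difference between the sets. After set means were subtracted, Socs2 and Igf1 had rho = 0.81 among the controls (blue). Its adjusted permutation p was 0.049 over 16 values and 0.147 over 48. The high-fat Xist-low libraries form the low group for Igf1.

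The genes with the most similar profiles over the 24 libraries, among 13776 with a mean of at least 10 counts, were found by the mean absolute difference of z-scored log2(CPM + 1). For Igf1 they were Urad (0.169), the bile acid transporter gene Slc10a1 (0.197) and Sdc2 (0.206). For Ghr they were the sulfotransferase gene Sult2a8 (0.195) and Masp2 (0.198), and for Igfals Cyp2d26 (0.246), Afm (0.252) and Hacl1 (0.260). Cish was matched less closely by Rgs3 (0.354), Arid5b (0.416) and Foxa2 (0.470), and Socs2 by Ugcg (0.391), Med12l (0.498) and D630039A03Rik (0.514). The nearest of Socs3 were E2f2 (0.484), Cfap69 (0.527) and Aspm (0.529). Stat5a had Lars2 (0.463), Acsf2 (0.475) and Trim14 (0.486), and Stat5b had Eif4g1 (0.374), Fan1 (0.379) and AW549877 (0.390).

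Around the receptor, 4 of 13 signalling genes were called higher by edgeR, where 13.2% of all genes were, and 0 lower (2 at an unadjusted p under 0.05), with a median log2 fold change of 0.03 against -0.03 over all genes. Jak2, the kinase that carries the signal, averaged 15.8 and 15.6 CPM in the Xist-high and 14.6 and 15.5 in the Xist-low libraries on the control and high-fat diets (log2 fold change 0.03, adjusted p = 0.779 by edgeR). Sirpa, a membrane protein that recruits phosphatases and is abundant on macrophages, rose from 22.7 ± 9.35 to 93 ± 32 CPM (SD, n = 12; log2 fold change 2.03). Ptpn6, the phosphatase SHP-1 of blood cells, rose by 0.54, the adaptor gene Grb10 by 1.0 and the inhibitor gene Socs1 by 1.07 on the log2 scale, Socs1 from 0.393 to 0.823 CPM. The rise of macrophage markers stands beside these values, and its part in them was not tested. Ptpn11, Ptpn2 and Socs6 had log2 fold changes between -0.16 and -0.04 and were not called.

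Of the genes for IGF carriers and receptors, 15 of 16 could be tested. By edgeR 3 were called higher, a share near the 13.2% of all genes, and 0 lower (3 at an unadjusted p under 0.05). Their median log2 fold change was -0.09. Igfbp7, a matrix-associated binding protein, rose from 93.5 ± 24.5 to 216 ± 94.5 CPM (log2 fold change 1.20, adjusted p = 2.93e-05 by edgeR). Igfbp5 rose by 0.76 and Stc2, an inhibitor of the protease PAPP-A, by 1.76 on the log2 scale, the latter from 0.433 to 1.5 CPM. Igfbp3, the partner of IGF-1 and the acid-labile subunit, had 25.1 ± 11.2 and 35.2 ± 8.51 CPM (log2 fold change 0.49, adjusted p = 0.0471) and was not called. The insulin receptor gene Insr had -0.50 (adjusted p = 0.00107) and the carrier gene Igfbp4, at 2141 ± 232 CPM in controls, -0.47 (adjusted p = 0.000348), and neither was called with all libraries. Within the Xist-low libraries both were called lower, at -0.69 and -0.59 (adjusted p = 0.00204 and 0.00143 by edgeR). Of the 15 genes 2 were called lower and 3 higher there, where 7.99% and 14.4% of all genes were. Igf1r, the IGF-1 receptor gene, averaged 2.7 CPM in controls and 3.52 in high-fat libraries (log2 fold change 0.38, adjusted p = 0.169).

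Among 10 transcription factor genes that work with STAT5 in liver, all had a log2 fold change below 0 (median -0.35, against -0.03 over all genes). By edgeR 1 was called lower, where 4.99% of all genes were, and 0 higher (0 at an unadjusted p under 0.05). Hnf4a (log2 fold change -0.40, not called) is also 1 of the 10 hepatocyte markers. Onecut1 (HNF6) was the called gene, at 54.3 ± 45 CPM in controls and 20.5 ± 10.5 on the high-fat diet (log2 fold change -1.41, SE 0.41, adjusted p = 0.00825 by edgeR), and it varied widely among controls. With library totals or limma-voom 0 genes of the list were called lower. Onecut1 had -1.49 in the Xist-high and -1.31 in the Xist-low libraries (adjusted p = 0.0545 and 0.0905 by edgeR) and was called in neither. Cebpa and Nr3c1, the glucocorticoid receptor gene, had -0.40 and -0.39 with adjusted p-values of 0.000217 and 0.00782 and missed the fold threshold with all libraries. In the Xist-low libraries they were the 2 of 10 called lower, where 7.99% of all genes were. They had -0.53 and -0.55 there (adjusted p = 0.00247 and 0.00131 by edgeR). The repressor genes Bcl6 and Cux2, which sharpen the male and the female pattern, were at 26.7 and 0.45 CPM in Xist-low and 7.23 and 88 CPM in Xist-high controls. On the high-fat diet they were at 18.3 and 0.758 CPM in the Xist-low and 10.9 and 60.2 CPM in the Xist-high libraries, and neither was called in any of the fits by set.

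Genes known to be male-biased under growth hormone pulses were lower in the Xist-low libraries of the high-fat diet. Of 20, 19 were called lower there and 0 higher, where 7.99% of all genes were called lower, and their median log2 fold change was -2.32. Major urinary protein gene Mup7 went from 22509 ± 16350 to 75.8 ± 95.1 CPM (SD, n = 6; log2 fold change -8.20). The anion transporter gene Slco1a1 fell from 367 ± 52.4 to 8.25 ± 10.4 CPM, the oxysterol hydroxylase gene Cyp7b1 from 246 ± 105 to 37 ± 13.4, and the fatty acid elongase gene Elovl3 from 117 ± 41.1 to 26.6 ± 8.58. The steroid dehydrogenase gene Hsd3b5 went from 175 ± 75.5 to 0.133 ± 0.145 CPM, a level that 3 counts or fewer would give. Mup20 was the 1 gene not called, at 14375 ± 9425 and 9832 ± 1522 CPM (log2 fold change -0.53, adjusted p = 0.235 by edgeR).

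In the Xist-high libraries 2 of 20 were called higher and 1 lower, with a median of 0.15. Over all genes 2.9% were called higher and 0.882% lower there. On the control diet all 20 lay below their Xist-low levels, but not all were low. Mup3 averaged 1134 ± 410 CPM on the control and 1137 ± 467 CPM on the high-fat diet in the Xist-high libraries. Elovl3 rose there from 1.37 ± 0.424 to 10 ± 2.6 CPM (log2 fold change 2.88) and Mup20 from 49.3 ± 15.3 to 361 ± 306. The interaction of diet and set was called negative for 16 of 20 and positive for 0, where 1.47% of all genes were called negative. Cyp4a12a is among the 16, and its mean of 0.0555 CPM in Xist-high controls lies below the level of 3 counts, so the size of its interaction is not fixed by the data. With both sets in 1 fit, 11 of the 20 were called lower, where 4.99% of all genes were. With library totals 7 were, where 1.26% of all genes were, and with limma-voom 1, for which no share is given. Mup genes and the gene pairs of the Cyp4a12, Ugt2b and Serpina1 families are near copies, and counts could be split among them.

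Genes known to be female-biased were mostly lower in the Xist-high libraries. Of 25, 12 were called lower and 1 higher in the Xist-high libraries, where 0.882% of all genes were called lower and 2.9% higher, with a median log2 fold change of -1.33. A1bg fell from 1153 ± 642 to 82.2 ± 68.2 CPM (SD, n = 6), the sulfotransferase gene Sult3a1 from 55.7 ± 28.7 to 4.89 ± 3.11, Cyp3a41a from 2686 ± 934 to 612 ± 338 and Cyp2a4 from 1517 ± 407 to 609 ± 219. In the Xist-low libraries 7 were called higher and 2 lower, where 14.4% were called higher. Cyp2a4 rose from 0.247 ± 0.276 to 13.9 ± 4.92 CPM, Cyp2b9 from 0.789 ± 0.993 to 9.73 ± 7.12 and Cyp3a44 from 10.8 ± 5.42 to 60.7 ± 11.3. Sult3a1 had 0 counts in all 12 Xist-low libraries, and 6 of the 25 genes did not exceed 0.305 CPM, the highest level that 3 counts give, on either diet there; the other 19 had a median of 0.67. Cyp17a1 was called lower in both sets, from 448 ± 116 to 187 ± 72.2 and from 64.1 ± 13.3 to 20.2 ± 5.01 CPM. The interaction was called positive for 5 of 25 and negative for 0, where 2.57% of all genes were called positive. Members of the Cyp2b, Cyp2c and Cyp3a families are near copies as well.

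The gap between the sets was smaller on the high-fat diet. On the control diet all 20 male-biased genes were higher in Xist-low libraries with no overlap, and the median gap in mean log2(CPM + 1) was 5.33. It was 1.43 in high-fat libraries, and 10 of the 20 had no overlap. For the 25 female-biased genes the gap was -5.55 on the control diet and -3.94 on the high-fat diet, with 23 and 18 genes free of overlap. The sets were drawn by Xist and Ddx3y and the lists were chosen as sex-biased, so no test is given for these gaps. The share of all genes that separate the sets is not given either, so the counts are a description only.

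**Figure D5:**
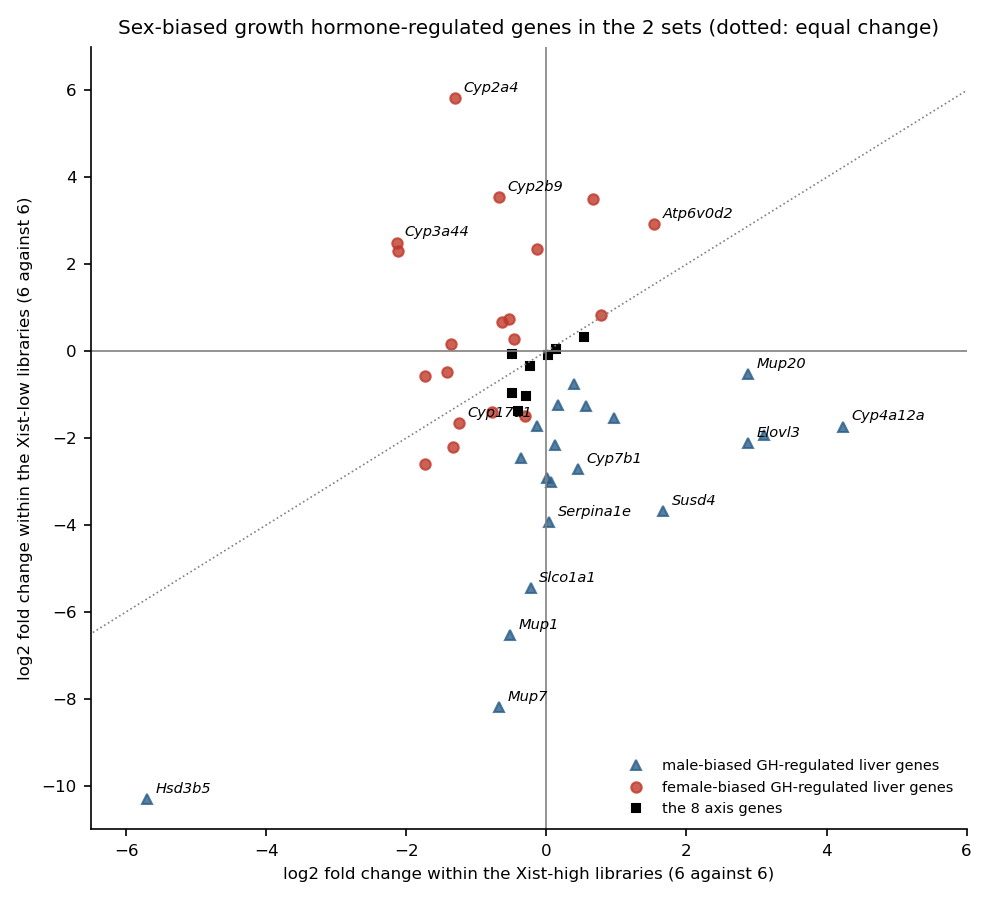
Log2 fold change on the high-fat diet within the 12 Xist-low libraries (y axis) against that within the 12 Xist-high libraries (x axis) for 20 male-biased genes (triangles), 19 female-biased genes (circles, without the 6 at or below the level of 3 counts in the Xist-low libraries) and the 8 axis genes (squares). All triangles lie below 0 on the y axis, and most circles lie left of 0 on the x axis. The axis genes lie closer to the origin than most of them.

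Genes reported to rise when liver lacks the growth hormone receptor or STAT5 were also measured. Of 6, 3 were called higher with all libraries, where 13.2% of all genes were, and 0 lower, and all 6 had a log2 fold change above 0 (median 1.29). The lipid droplet gene Cidec rose from 13.2 ± 15.8 to 100 ± 85.7 CPM (SD, n = 12; log2 fold change 2.93), the lipid regulator Pparg from 7.94 ± 3.59 to 19.8 ± 5.72, and the fatty acid transporter gene Cd36 from 77 ± 55 to 159 ± 27.7. Vldlr was called higher in the Xist-low libraries, from 0.931 ± 0.784 to 4.75 ± 1.65 CPM. Mogat1 had log2 fold change 1.41 (adjusted p = 0.0162 by edgeR) and Cidea 1.27 (adjusted p = 0.356). These genes also answer to dietary fat, and the data hold no library in which the hormone axis alone was changed.

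Of 8 hormone receptor and hepatokine genes tied to the axis, 0 were called with all libraries in either direction by edgeR, with 4 below 0 at an unadjusted p under 0.05. DESeq2 and limma-voom each called 1 lower. In the Xist-low libraries 2 were called lower, where 7.99% of all genes were. These were the estrogen receptor gene Esr1 (25.2 ± 15.9 to 9.07 ± 1.9 CPM, log2 fold change -1.47) and the FGF21 co-receptor gene Klb (25 ± 7.92 to 10.3 ± 1.58, -1.27). Fgf21 itself, a hormone of the fasted liver, had 6.42 and 10.3 CPM there (log2 fold change 0.70, adjusted p = 0.0292). The leptin receptor gene Lepr was at 53.1 ± 25 and 14.9 ± 15.6 CPM in the Xist-high libraries (log2 fold change -1.82, adjusted p = 0.0169) and did not pass the threshold.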

How the data were processed

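Whole-liver RNA was extracted with Trizol and sequenced as poly(A)-selected libraries. For the 24 libraries the authors deposited raw counts of reads per Ensembl gene, which are whole numbers and not normalized, in 1 table. The submitters' processing notes name STAR 2.7.3a, bcl2fastq and the build mm10. The study's supplement names a stranded mRNA kit, the exon quantification pipeline with STAR, and PISCES, with a human reference. Whether these made the mouse counts, with which annotation and strand setting, is not given in the sources used here. Gene symbols from GENCODE M21 matched 51745 of 56205 IDs, and the other 4460 held 0.0723% of the counts and stayed in the fit. Columns were tied to libraries through their titles, and diets were read from the labels.

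CPM, log2 fold changes and adjusted p-values were computed from the deposited counts in R 4.3.3 with the quasi-likelihood test of edgeR 4.0.16 after TMM scaling. Diet was the single term, and p-values were adjusted by Benjamini-Hochberg over the 17913 genes that reached 1 count in 12 libraries or more. Standard errors were derived from the F statistic, as the size of the log2 fold change over its root. The interaction fit had diet, set and their product, the sets being drawn at 1000 Xist counts. Permutation tests were two-sided on log2(CPM + 1). The scripts were tested on simulated data. Within each diet, any 2 libraries differed by more than sampling noise (chi-square per degree of freedom 10.1 or above). At the depths here 3 counts equal between 0.118 and 0.305 CPM, and intervals from such counts would cover counting error only.

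The members, the 7 pathway lists (96 genes), the 10 marker lists and the alternatives were chosen with earlier results of these data known, so they are not independent of them. The genes named are the members, the list genes, the 3 nearest profiles of each member (1 of them is not reported here) and the marker genes. Alternatives were DESeq2 1.42.0, limma-voom 3.58.1, 2 other scalings, 3 other filters, 2 other thresholds, the set as a covariate, fits within sets, the replicate number as a block, a pseudocount of 0.1 and each library left out. Subtraction of the hepatocyte marker mean was added after the data were seen.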

Additional observations from a re-analysis of the deposited data

Results flagged for a closer look

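The effect of the diet differed between the Xist-high and Xist-low libraries, by edgeR's interaction test with the thresholds used throughout, for 26 genes of the axis and its lists. Values are the log2 fold change in Xist-low minus that in Xist-high libraries. Of the 8 axis genes these were Ghr, at -0.76, and Igfals, at -0.98. Of the signalling and carrier genes they were Ptpn6 (0.77), Sirpa (1.32) and Igfbp7 (1.25), and macrophage markers also had larger rises in the Xist-low libraries, with 5 of 10 interactions called. Of the male-biased genes they were Cyp2d9 (-2.51), Cyp4a12a (-5.96), Cyp7b1 (-3.18), Elovl3 (-5.01), Mup1 (-6.02), Mup3 (-2.95), Mup7 (-7.53), Mup20 (-3.42), Mup21 (-3.08) and Slco1a1 (-5.24). The same list held Ugt2b1 (-1.61), Nudt7 (-2.30), Gstp1 (-1.84), Cyp2u1 (-1.41), C6 (-1.16) and Susd4 (-5.35). Of the female-biased genes they were Cyp2b9 (4.21), Cyp3a41a (4.42), Cyp3a44 (4.63), Cyp2a4 (7.13) and Slc22a27 (2.48). Cyp4a12a in Xist-high controls (0.0555 CPM) and Cyp2a4 in Xist-low controls (0.247 CPM) lay below 0.305 CPM, the highest level that 3 counts give, so the sizes of both values depend on the prior count of the fit. Over all genes, 2.57% had a called positive and 1.47% a called negative interaction.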

How the results depend on the processing

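The count of axis genes called lower stayed at 3 and the count called higher at 0 under DESeq2, limma-voom, DESeq2's size factors, the 3 filters, the set as a covariate, the Xist-low libraries alone, the replicate block and each library left out. It was 0 lower and 1 higher with library totals, 0 lower within the Xist-high libraries, 0 lower at an absolute log2 fold change over 1, and 1 higher at an adjusted p of at most 0.05 with no fold threshold. In the 7 lists, 11 genes were called higher and 13 lower. With 10 counts required in every library 7 were lower, with library totals 7, with limma-voom 2, with the set as a covariate 22, and at an adjusted p of at most 0.05 with no fold threshold 29. Within the Xist-high libraries 7 were higher, and within the Xist-low libraries 19 were higher and 27 lower. The cause of these shifts was not tested. The fits within sets also hold fewer libraries, and the part of that was not tested either.

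The log2 fold change of Cish was 0.01 with limma-voom, and that of Stat5b was 0.00 with 10 counts in every library, 0.23 with library totals and 0.02 within the Xist-high libraries. With library totals the interactions were -0.42 for Ghr, -0.62 for Igfals, 0.14 for Socs3, 0.22 for Cish, 0.25 for Stat5a and 0.21 for Stat5b. With 1 library left out they ran from -0.81 to -0.64 for Ghr, -0.53 to -0.44 for Igf1, -1.06 to -0.88 for Igfals, -0.31 to 0.02 for Socs3 and -0.36 to 0.35 for Cish. Igf1 passed the thresholds without control replicate 10 or 11, at -0.51 and -0.53. The relation of Cish and Socs2 in controls ran from 0.33 to 0.75, without replicate 7 and without replicate 12, and passed an unadjusted p of 0.05 without replicate 10 or 12. That of Socs2 and Igf1 ran from 0.62 to 0.85 in controls and from -0.07 to 0.71 on the high-fat diet, where -0.07 was the value without replicate 7 and 0.71 (unadjusted p = 0.0218) that without replicate 5. After subtraction of the hepatocyte markers the diet differences were 0.09 (Ghr), 0.04 (Igf1), -0.11 (Igfals), 0.52 (Socs2), 0.75 (Cish), 0.89 (Stat5a) and 0.74 (Stat5b), all moved by the same amount by construction.

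Same-numbered libraries of the 2 diets had correlations of their deviations from the diet means between -0.093 (replicate 9) and 0.541, and the shared numbers were treated as names without pairing; 6 of 24 libraries correlated best with their own number. With the replicate number as a block the log2 fold changes were -0.69 for Ghr, -0.74 for Igf1 and -0.90 for Igfals, 3 axis genes were lower, and 12 and 18 list genes were higher and lower. No member's call changed.

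Depth limits Socs1, Stc2 and the genes near 0 in 1 set, which rest on few counts. The labels give no sex, and the sets come from the data.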
